A study of Mus musculus with 6 samples.

Results

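The change in the cyclosporin A response of mouse back skin between day 4 and day 7 after treatment was measured as the difference between the log2 ratios of both days. For every gene, the mean log2 ratio of cyclosporin A over ethanol on the 2 day 4 arrays was subtracted from that on the 2 day 7 arrays, so that 4 of the 6 arrays of the series carried the comparison. The choice of arrays used their labels and no measured value. Each group held back skin of C57/BL mice, and no other allele or agent is labelled. On each 2-colour Agilent array, skin treated with cyclosporin A (labelled Cy5) was hybridised against ethanol-treated control skin of the same day (labelled Cy3), at days 2, 4 and 7 with 2 arrays per day. The labels speak of biological replicates without naming animals, so that the p-values measure only the spread between these samples, which may be technical. Age, hair cycle stage and dose are not given in the sources used here.

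Cyclosporin A binds cyclophilins, and the complex blocks calcineurin, the phosphatase that sends NFAT transcription factors to the nucleus. It is used as an immunosuppressant and is known to increase hair growth. A follicle that enters its growth phase, anagen, first expands the matrix cells at its base. These cells then differentiate into the inner root sheath, which moulds the growing hair, and into the shaft, whose hair keratins are embedded in keratin-associated proteins. Pigment is added by melanocytes that sit among the matrix cells.

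No array had its dyes swapped. A dye effect that is the same on all arrays cancels in the difference between days, whereas a slide's effect on that ratio does not. The arrays of day 4 lay on 1 slide together with those of day 2, and those of day 7 on another, so that slide and day 7 cannot be told apart. Median signals per array were 203 to 277 for Cy3 and 134.5 to 187 for Cy5. Precision is limited by having 2 arrays per day. All 11 defining markers of skin present on the array could be detected well above background on all 6 arrays in both channels. The log2 ratios of 10 spike-in controls on day 4 replicate 2 stood 0.67 to 1.57 above their mean on the other 5 arrays (median 1.41). Between day 7 and day 4 replicate 1 alone, the spike-in ratios differed by a median of -0.05 (-0.15 to 0.09), whereas with both day 4 arrays the median difference was -0.64. The part of this offset in the results was not tested. Results without this array are given beside the counts.

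The differences that passed the test all ran in 1 direction, toward cyclosporin A, and genes that build the hair were prominent among them. Of 22038 genes tested with limma, 41 had a higher ratio at day 7 than at day 4 at a Benjamini-Hochberg adjusted p under 0.05 (0.186% of genes tested), referred to here as called. The number called lower was 0 (0%), against 501 lower and 487 higher at an unadjusted p under 0.05 (2.27% and 2.21%). These 988 genes were fewer than the 1102 that make up 5% of the genes tested. The median difference over all genes was -0.01. Each count of called members of a list below is to be read against the 0.186%, and a short list with 0 called lies near that share. A difference of at least 2-fold was found for 157 genes upward (0.712%) and 69 downward (0.313%), and all 41 called genes were among the former. Both day 7 ratios lay above both day 4 ratios for 3942 genes (17.9%) and below them for 3934 (17.9%).

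Of the called genes, 27 had a symbol and 15 of these were keratins or keratin-associated proteins. The differences ranged from 1.56 to 6.53 on the log2 scale (median 3.25), with standard errors (SE, limma's moderated values) of 0.15 to 0.38. Without day 4 replicate 1, 14 genes were called higher, and without day 4 replicate 2 the number was 16, of which 15 were among the 41. Of the 41, 14 kept their call whichever single array was left out, among them Fbp1, Gjb2, Krt27, Krt71, Krt87, Krtap5-1, Padi3, Prr9 and S100a3. The difference of each of the 41 stayed above 0 whichever array was left out. This was fixed in advance, because in each of the 41 both day 7 ratios lay above both day 4 ratios.

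**Figure D1:**
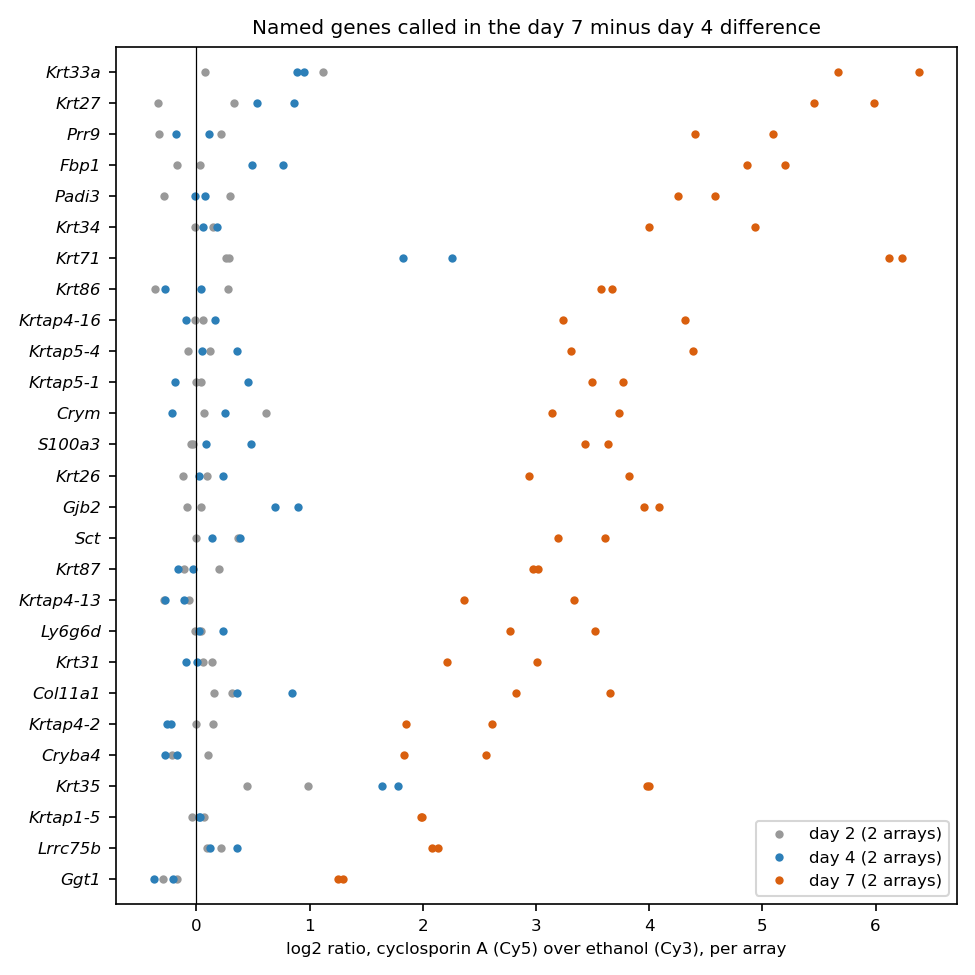
Log2 ratio of cyclosporin A over ethanol on each of the 6 arrays (x axis) for the 27 called genes with a symbol (y axis, ordered by the difference between days), with 2 points per day. Both day 7 points of every gene lie above both of its day 4 points, and day 4 and day 2 points overlap near 0 for most genes. Where a channel was not well above background, a ratio near 0 was not fully measured.

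Promoter sequences are shown for genes with large differences, because many promoters of the called keratin and keratin-associated genes hold the letters TATAAA. These letters are the core of the TATA box, at which the transcription machinery assembles on some promoters. The 80 bases upstream of the transcription start were taken from RefSeq (assembly GRCm38.p6) and are written 5′ to 3′ on the gene's own strand, with TATAAA in capitals. Of the 27 called genes with a symbol, 21 were matched to a promoter. The letters TATAAA, searched on both strands, occurred in 13 of the 21 (61.9%), and in 1048 of 17492 protein-coding genes (5.99%). Most of the 13 were keratin or keratin-associated genes, families of similar sequence. Outside these families Prr9, Sct and S100a3 held the letters, S100a3 at 1 of its 4 promoters. Padi3, Fbp1, Gjb2, Col11a1, Ggt1, Cryba4 and Ly6g6d did not. The binding letters of TCF/LEF factors, searched likewise, occurred in 0 of the 21, near the share of all genes (3.84%). A match is a description of letters in this window. The first 7 sequences hold TATAAA and the last 3 do not. Krt25, which was not called, is included because it lies next to Krt26.
Krt71 (chr15:101743098-101743177, minus strand): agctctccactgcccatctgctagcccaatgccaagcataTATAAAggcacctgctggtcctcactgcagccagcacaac
Krt27 (chr11:99351119-99351198, minus strand): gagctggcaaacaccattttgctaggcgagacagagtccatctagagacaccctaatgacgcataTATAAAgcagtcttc
Krt26 (chr11:99337966-99338045, minus strand): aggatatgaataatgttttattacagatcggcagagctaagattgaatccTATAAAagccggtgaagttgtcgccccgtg
Krt25 (chr11:99322952-99323031, minus strand): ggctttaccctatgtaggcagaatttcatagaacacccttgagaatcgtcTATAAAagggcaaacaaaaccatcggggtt
Krt34 (chr11:100041555-100041634, minus strand): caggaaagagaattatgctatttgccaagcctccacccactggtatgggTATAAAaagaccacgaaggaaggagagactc
Prr9 (chr3:92123948-92124027, minus strand): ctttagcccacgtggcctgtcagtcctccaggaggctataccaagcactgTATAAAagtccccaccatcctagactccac
Krtap5-1 (chr7:142297135-142297214, minus strand): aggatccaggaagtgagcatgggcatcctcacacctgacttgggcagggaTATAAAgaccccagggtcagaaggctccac
Padi3 (chr4:140810649-140810728, minus strand): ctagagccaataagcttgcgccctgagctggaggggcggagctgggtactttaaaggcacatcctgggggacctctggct
Fbp1 (chr13:62888283-62888362, minus strand): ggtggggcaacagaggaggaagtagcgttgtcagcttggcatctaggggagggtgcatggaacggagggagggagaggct
Gjb2 (chr14:57104703-57104782, minus strand): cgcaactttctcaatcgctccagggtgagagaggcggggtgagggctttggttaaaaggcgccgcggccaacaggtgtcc
In Krt26, Krt25, Prr9 and Krtap5-1 the first T of the motif stood 30 bases before the start, in Krt34 31, in Krt71 40 and in Krt27 15. Of the 27 called genes with a symbol, 8 lay directly next to another called gene in the RefSeq gene order, as the pairs Krt26 and Krt27, Krt31 and Krt34, Krtap5-1 and Krtap5-4, and Lrrc75b and Ggt1.

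Genes of the inner root sheath showed some of the largest differences. Of 13 listed, 8 were on the array and tested, and 4 of the 8 were called higher, against 0.186% of all genes, with a median difference of 3.19 over the 8. Ethanol was not well above background on either day 4 array in 3 of the 8 (Krt25, Krt26 and Tchhl1) and cyclosporin A in 2 (Krt26 and Tchhl1), so that some passed the filter only where they were high and the counts are a description. Krt71, a type II keratin of this sheath, had log2 ratios of 1.83 and 2.26 at day 4 and of 6.24 and 6.12 at day 7. It was therefore already higher under cyclosporin A at day 4, and was the 1 called gene that was also called at day 4 (adjusted p = 0.0429), a test within a day that keeps any dye effect of the gene. At day 2 its ratios were 0.26 and 0.29, so that the 3 days formed 3 separate levels. The difference between day 7 and day 4 was 4.14 (SE 0.19, adjusted p = 0.000985), a 17.6-fold higher ratio.

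Krt27, a type I keratin of the same sheath, started lower. Its ratios were 0.54 and 0.87 at day 4 and 5.46 and 5.99 at day 7, with a difference of 5.02 (SE 0.29, adjusted p = 0.0015), or 32.4-fold. Its day 2 ratios of 0.33 and -0.34 lay on both sides of 0. Its neighbour Krt26 had ratios of 0.02 and 0.23 at day 4 and 3.82 and 2.94 at day 7 (difference 3.25, adjusted p = 0.0116). Neither channel of Krt26 was well above background at day 4, and ethanol was not at day 7, so that no fold is given for the difference; the day 7 ratio was at least 10.4-fold.

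Such "at least" values set the brighter group's mean against, per array, the higher of the lowest signal well above background and the dim probe's own signal, and dye bias may enter them, as no dyes were swapped. Krt25, the next gene of this cluster, had ratios of 2.09 and 2.05 at day 4 and of 4.47 and 5.92 at day 7. Its ethanol signal was not well above background at day 4, so that these day 4 ratios and the difference were not fully measured and no fold is given. The groups did not overlap and its difference was 3.13, but the day 7 arrays lay apart and it was not called (SE 0.44, adjusted p = 0.0932). When either day 7 array was left out it was called, and the log2 difference of Krt25 was 3.86 without replicate 1 and 2.40 without replicate 2.

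Padi3, a peptidylarginine deiminase that converts arginines of trichohyalin into citrulline, had ratios of 0.08 and -0.02 at day 4. At day 7 they were 4.58 and 4.25, a 20.9-fold higher ratio (difference 4.39, SE 0.24, adjusted p = 0.00135). Both of its channels were detected on all 4 arrays, and its day 4 ratios did not stand apart from 0. Tchhl1, a relative of trichohyalin, had 0.13 and 0.00 at day 4 and 1.14 and 0.80 at day 7 and was not called (adjusted p = 0.369). The transglutaminase gene Tgm3 (difference -0.05) and Gata3, a transcription factor of the sheath (difference -0.0030), were not called either, and the sign of both turned under other settings.

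Most hair shaft keratins also had higher ratios at day 7 than at day 4, with day 4 ratios near 0 for all but Krt33a and Krt35. Their median ratio was 0.06 at day 2, 0.04 at day 4 and 3.31 at day 7. Of 16 listed, 8 were on the array and tested, 6 were called higher, against 0.186% of all genes, and the median difference of the 8 was 2.87. At day 4, ethanol was not well above background on either array in 6 of the 8 and cyclosporin A in 3 (Krt87, Krt31 and Krt82), so that members could pass the filter only through day 7, and these counts too are a description. Krt35, a type I keratin expressed early in the forming shaft, had ratios of 0.98 and 0.45 at day 2, 1.64 and 1.78 at day 4 and 4.00 and 3.99 at day 7. Its difference between day 7 and day 4 was 2.28 (SE 0.21, adjusted p = 0.0128), or 4.86-fold, and both channels were above background on all 4 arrays. It was the 1 called shaft keratin for which this held at day 4.

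Krt33a, a type I keratin of the shaft, had ratios of 0.95 and 0.89 at day 4 and 6.38 and 5.66 at day 7 (difference 5.10, SE 0.38, adjusted p = 0.00431). Ethanol was not well above background on the 4 arrays, which leaves only a bound: the day 7 ratio was at least 65.0-fold. Krt34 had 0.18 and 0.06 at day 4 and 4.94 and 4.00 at day 7 (difference 4.35, adjusted p = 0.0034), with ethanol likewise not well above background and a day 7 ratio of at least 22.1-fold. In the cyclosporin A channel alone the signal of Krt33a was 60.4-fold and that of Krt34 32.6-fold higher at day 7 than at day 4.

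Among the type II keratins, Krt86 had ratios of -0.28 and 0.04 at day 4 and 3.68 and 3.57 at day 7 (difference 3.74, adjusted p = 0.00288). Krt87 had -0.17 and -0.03 at day 4 and 2.98 and 3.02 at day 7 (SE of the difference 0.18, adjusted p = 0.0015). Ethanol was not well above background at day 4 for either gene, so that no fold is given. Krt31, next to Krt34, had 0.00 and -0.09 at day 4 and 3.01 and 2.21 at day 7 (difference 2.65, adjusted p = 0.019), and its cyclosporin A signal was at least 10.7-fold higher at day 7. Krt82, a keratin of the hair cuticle, was not called, with ratios of -0.18 and -0.32 at day 4 and 1.90 and 0.80 at day 7 (adjusted p = 0.464). Krt84 had 0.05 and 0.32 at day 4 and 0.14 and 0.15 at day 7, and the sign of its difference of -0.04 turned under other settings. Hair keratin genes are close in sequence, and whether a probe also binds a near-identical family member was not tested.

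Keratin-associated proteins, the cysteine- or glycine-rich proteins that cross-link hair keratin filaments, had higher ratios at day 7 nearly throughout. Of 56 listed, 28 were on the array and 26 were tested; 25 of the 26 differences were above 0, against 10586 of the 22038 over all genes. In 23 of 26 both day 7 ratios lay above both day 4 ratios, against 17.9% of all genes, and 6 were called, against 0.186% of all genes. The median difference was 1.88. Since ethanol was not well above background at day 4 in 19 of the 26 nor at day 7 in 19, a member that passed the filter only through cyclosporin A at day 7 had to differ upward, and the counts are a description.

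Krtap5-1 had ratios of -0.19 and 0.45 at day 4 and of 3.77 and 3.50 at day 7. Both channels were above background on all 4 arrays, and the ratio was 11.3-fold higher at day 7 (difference 3.50, SE 0.24, adjusted p = 0.0034). Its neighbour Krtap5-4 had 0.05 and 0.36 at day 4 and 4.39 and 3.31 at day 7, a 12.5-fold higher ratio (adjusted p = 0.0134). These genes belong to 1 family of similar sequence, so that the 2 probes may share transcripts, which was not tested.

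In the Krtap4 family, Krtap4-16 had -0.09 and 0.17 at day 4 and 4.31 and 3.24 at day 7 (difference 3.74, adjusted p = 0.0116). Its ethanol signal was not well above background on these 4 arrays, and the day 7 ratio was at least 13.7-fold. For Krtap4-13 and Krtap4-2 neither channel was well above background at day 4, and the cyclosporin A signal was at least 11.6-fold and at least 5.53-fold higher at day 7 (adjusted p of the difference 0.021 and 0.0214). Krtap1-5 had the closest day 7 arrays of the family, 1.99 and 1.98, after 0.03 and 0.02 at day 4 (difference 1.96, SE 0.15, adjusted p = 0.00543). Neither channel of Krtap1-5 was well above background at day 4.

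Larger differences did not always pass the test. Krtap6-5 had -0.14 and 0.05 at day 4 and 4.04 and 2.11 at day 7, a difference of 3.12 with an adjusted p of 0.249. Krtap13-1 had -0.07 and 0.06 against 2.81 and 1.86 (adjusted p = 0.0626), and Krtap4-7 0.21 and 0.17 against 3.36 and 2.09 (adjusted p = 0.129). In Krtap19-4, day 7 replicate 1 had a ratio of 2.13 and replicate 2 of 0.03. The median ratio of the 26 was 2.41 on day 7 replicate 1 and 1.44 on replicate 2, whereas both day 4 arrays had medians of -0.01 and 0.09. Krtap3-2 was the 1 member with a difference below 0 (-0.63, adjusted p = 0.937).

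Called genes outside the keratin families included enzymes, a gap junction subunit and a hormone. Fbp1, a fructose bisphosphatase that acts in gluconeogenesis, had the smallest p among genes with a symbol. Its ratios were 0.03 and -0.17 at day 2, 0.49 and 0.76 at day 4 and 5.20 and 4.86 at day 7, and both channels were above background on all 4 arrays of days 4 and 7. The ratio was 21.2-fold higher at day 7 than at day 4 (difference 4.40, SE 0.20, adjusted p = 0.000985). It was the 1 called gene of 26 in the sugar metabolism list, whose median difference was -0.07.

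Prr9, a proline-rich protein gene that lies between Lor and Lelp1 in the epidermal differentiation complex, had -0.18 and 0.11 at day 4 and 5.10 and 4.41 at day 7. Its ratio was 27.6-fold higher at day 7 (difference 4.78, SE 0.29, adjusted p = 0.00187). Lor itself, which encodes the cornified envelope protein loricrin, had a lower mean at day 7 and was not called (0.27 and -0.18 at day 4, -1.28 and -1.14 at day 7, adjusted p = 0.879). S100a3, a cysteine-rich calcium-binding protein of the hair cuticle, had 0.08 and 0.49 at day 4 and 3.64 and 3.44 at day 7, or 9.54-fold (adjusted p = 0.00167). S100a3 was chosen after its values were seen, as were Sct, Ly6g6d, Cryba4, Lrrc75b and Ggt1 below.

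Gjb2, a connexin that forms gap junctions between keratinocytes, had -0.08 and 0.04 at day 2, 0.90 and 0.69 at day 4 and 3.96 and 4.09 at day 7. The difference was 3.23 (SE 0.17, adjusted p = 0.00132), or 9.36-fold. A second, dimmer probe of Gjb2 gave a difference of 0.77, in the same direction but smaller. Gjb2 was the 1 connexin called of the 12 tested under a symbol, and the median of that list was -0.06.

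Crym, which binds thyroid hormone in the cytosol, had 0.25 and -0.22 at day 4 and 3.73 and 3.14 at day 7 (10.7-fold, adjusted p = 0.00978). Sct, the gene of the peptide hormone secretin, had 0.14 and 0.39 at day 4 and 3.61 and 3.19 at day 7 (8.82-fold, adjusted p = 0.00366). Ly6g6d, of the Ly6 family of membrane-anchored proteins, had 0.02 and 0.24 against 3.52 and 2.77 (difference 3.02, adjusted p = 0.00971), and its second probe gave 3.01. For each of these genes the day 4 ratios lay near 0 and the day 7 ratios did not overlap them.

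Col11a1, a chain of fibrillar collagen XI, had 0.85 and 0.36 at day 4 and 2.82 and 3.66 at day 7 (6.22-fold, adjusted p = 0.0377). It was the 1 collagen called of 20; Col4a1, a basement membrane collagen, had -0.09 and -0.31 against 0.64 and 1.15 and was not called (adjusted p = 0.909). Lrrc75b, which encodes a leucine-rich repeat protein, had 0.36 and 0.12 against 2.08 and 2.14 (3.64-fold, adjusted p = 0.0116). Its neighbour Ggt1, a glutathione-degrading gamma-glutamyltransferase, had ratios of -0.21 and -0.38 at day 4 and 1.25 and 1.29 at day 7 (adjusted p = 0.0203). Neither channel of Ggt1 was well above background at day 4, and ethanol was not at day 7, which leaves a day 7 ratio of at least 2.41-fold. Cryba4, known as a lens crystallin, had -0.28 and -0.17 against 2.56 and 1.83 (adjusted p = 0.0278), with ethanol not well above background on any of the 4 arrays.

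The remaining 14 called genes had no symbol in the RefSeq table. They could therefore not be counted in any list, including those of hair keratins, collagens and connexins. The largest difference of all was found for the probe of XM_001000857, with 0.09 and -0.11 at day 4 and 6.55 and 6.50 at day 7 (difference 6.53, SE 0.24, adjusted p = 0.0007831). Its second probe gave a difference of 1.70. CK791701 had 0.27 and 0.31 at day 4 and 5.18 and 4.54 at day 7 (difference 4.57, adjusted p = 0.00132). Among the folds and differences given, ethanol was well above background on only 1 of 2 day 4 arrays for Krt71, Krt27, CK791701 and Lrrc75b, and on only 1 of 2 day 7 arrays for Prr9, Sct, Lrrc75b, Krt86 and Krt87.

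At day 4, most called genes stood near a ratio of 0. The mean day 4 ratio lay between -0.5 and 0.5 for 31 of the 41, and above 1 for 3, which were Krt71, Krt35 and 1 gene with no symbol. Ethanol was not well above background on either day 4 array in 20 of the 41, and cyclosporin A in 14. Ratios of such dim signals are compressed toward 0, so that a value near 0 there is not a measured lack of difference. All 41 were also called at day 7 against a ratio of 0, as were 670 genes in all. The 41 were chosen with these same day 7 ratios, so that this count and the medians that follow are a description. Over the 41, the median of the mean ratio was 0.02 at day 2, 0.12 at day 4 and 3.54 at day 7. The test of day 4 minus day 2 called 0 genes by limma (0%), with 487 at an unadjusted p under 0.05 (2.21%); both differences share the day 4 arrays.

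**Figure D2:**
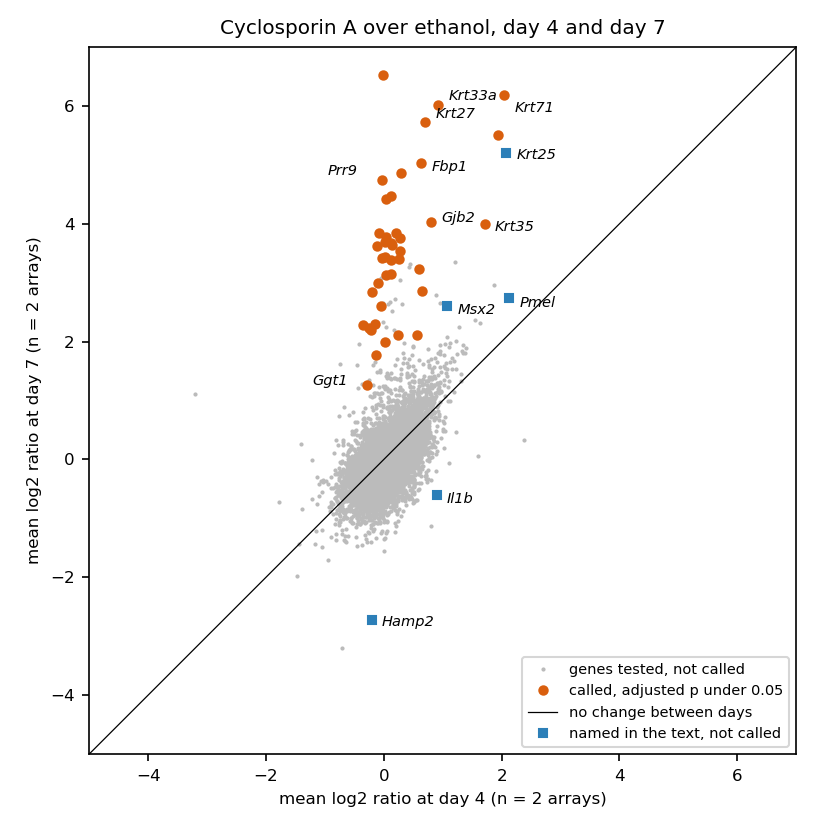
Mean log2 ratio at day 4 (x axis) against day 7 (y axis), n = 2 arrays each, for all genes tested. The 41 called genes (orange) lie above the line of no change, most of them at a day 4 ratio near 0. Where a channel was not well above background, such a ratio was not fully measured. Of the called genes, Krt71, Krt35 and 1 gene with no symbol stand to the right with day 4 means above 1. Krt25, Pmel and Msx2, which were not called (blue), also have day 4 means above 1.

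The change was also set out by channel. These values compare signals across both slides after the mean log2 signal was given the same distribution on all arrays, and they were not tested. The cyclosporin A signal was higher at day 7 than at day 4 for 41 of 41 called genes, by 1.39 to 7.73 on the log2 scale (median 3.99). The ethanol signal changed by -0.36 to 3.59 (median 0.57) and was lower at day 7 for 4 of the 41.

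In some of these genes the signal of control skin was higher at day 7 as well. The ethanol signal of Krt71 was higher by 3.59 at day 7, beside 7.73 in cyclosporin A skin. For Krt35 the values were 2.42 and 4.70, for Krt27 1.97 and 6.99, and for S100a3 1.88 and 5.14. In Gjb2, by contrast, the ethanol signal differed by 0.07 and the cyclosporin A signal by 3.29, and in Ly6g6d by 0.06 and 3.08. Ethanol was not well above background on either day 4 array in 20 of the 41 and on either day 7 array in 15, and cyclosporin A on either day 4 array in 14, where a change in that channel is compressed toward 0. In whole skin, more cells of a type and more RNA per cell cannot be told apart.

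**Figure D3:**
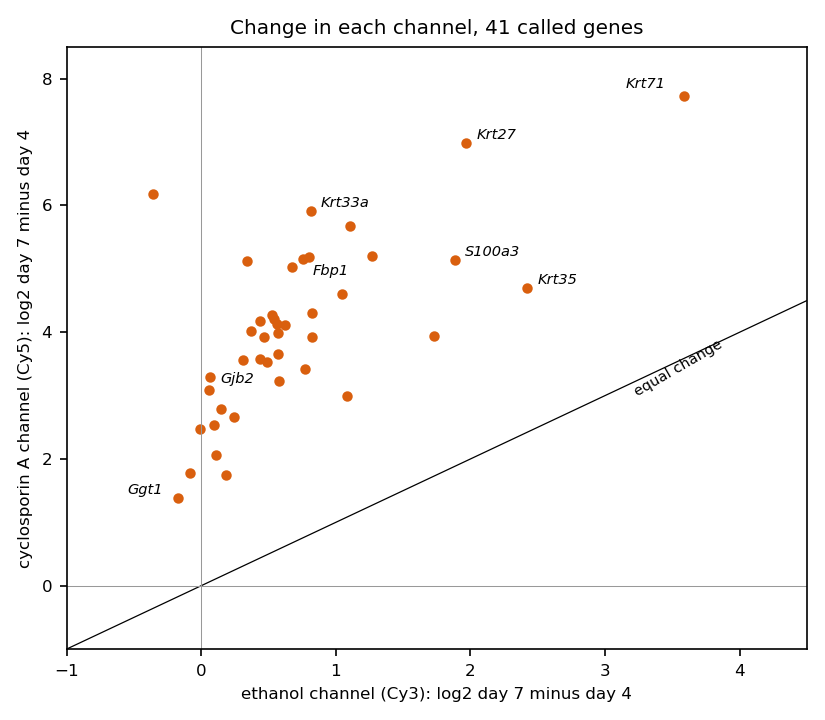
Log2 signal at day 7 minus day 4 in the ethanol channel (x axis) and the cyclosporin A channel (y axis) for the 41 called genes. All points lie above the line of equal change, as the choice of genes with a higher ratio fixes, and Krt71 stands farthest right with an ethanol change of 3.59; points of genes that were not well above background in a channel are compressed toward 0 on that axis.

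On the lists of matrix transcription factors, hedgehog, Wnt, BMP, fibroblast growth factor and Notch genes, 0 were called, against 0.186% of all genes. At that share, lists this short would hold few calls or none, so that the count is a description. The highest median of these lists was 0.23, against -0.01 over all genes. Bambi, a decoy receptor that dampens BMP signals, came closest, with 0.26 and 0.43 at day 4 and 1.66 and 1.78 at day 7 (difference 1.38, SE 0.17, adjusted p = 0.0511). Msx2, a homeobox gene active in matrix cells, had 0.32 and 0.46 at day 2, 1.07 and 1.09 at day 4 and 2.39 and 2.82 at day 7 (difference 1.52, adjusted p = 0.0596). In both genes the ratios of days 4 and 7 did not overlap, and both missed the threshold.

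Of the other matrix factors, Msx1 had 0.01 and 0.05 at day 4 and 0.98 and 1.39 at day 7 (adjusted p = 0.211), and Dlx3, another homeobox factor, -0.01 and -0.32 against 0.85 and 1.42 (adjusted p = 0.259). Lef1, a partner of beta-catenin, had 0.78 and 0.94 against 1.10 and 2.03 (adjusted p = 0.937), and Hoxc13, which drives hair keratin genes, 0.53 and 0.44 against 0.68 and 1.18 (adjusted p = 0.937). Foxn1, the factor lost in nude mice, had 0.02 and -0.19 against 0.34 and -0.83, with day 7 arrays on both sides of 0. Over the 22 matrix factors the median difference was 0.23, and 7 had both day 7 ratios above both day 4 ratios and 2 below, against 17.9% of all genes in each direction. Ethanol was well above background on only 1 array of each day for Msx2, and on none of the 4 for Hoxc13.

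Shh, the hedgehog ligand of the matrix, had 0.87 and 0.98 at day 4 and 1.38 and 2.24 at day 7 (adjusted p = 0.937). Of its target genes, Gli1 had a difference of 0.29 and Ptch1 one of 0.09, the latter of unstable sign across settings. Fgf5, the signal that ends anagen, had 0.22 and 0.64 against 1.54 and 1.30 (adjusted p = 0.711), and the Wnt ligand Wnt3 0.14 and 0.31 against -0.96 and -0.80 (adjusted p = 0.374). Of the dermal papilla list, 0 of 18 were called, against 0.186% of all genes (median 0.26). Corin, a protease of the papilla, had 0.23 and 0.40 against 1.16 and 1.21 (adjusted p = 0.29). The ethanol signals of Shh, Ptch1, Fgf5 and Corin were not well above background on any of the 4 arrays, which leaves their differences without a bound. The calcineurin and NFAT list had a median of -0.01 with 0 of 13 called, against 0.186% of all genes. Its differences ran from -0.59 for Nfatc1, which was 0.022 without day 4 replicate 2, to 0.33 for Nfatc3. Second, dimmer probes gave -0.09 for Nfatc1 and -0.02 for Nfatc3. Nfatc4 had the smallest p of the list, with -0.03 and 0.35 at day 4 and -0.71 and -0.13 at day 7 (difference -0.58, adjusted p = 0.937), and its days did not overlap. Rcan1, a calcineurin inhibitor and NFAT target, had -0.24 and -0.42 at day 4 and -0.16 and -0.13 at day 7 (adjusted p = 0.937).

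Genes of pigment and cell division had median ratios above 0 at day 4, 0.33 for pigment and 0.70 for mitosis, against 0.04 over all genes. None was called in the difference between days. The pigment median was already 0.26 at day 2. Other lists also stood above 0 at day 4, such as cytosolic ribosomal proteins with 0.43. Ratios within a day keep any dye effect. Over the 14 pigment genes the median difference was 0.43. Pmel, the fibril protein of melanosomes, had 2.09 and 2.16 at day 4, and at day 7 a mean of 2.74 with 2.47 on the lower array (adjusted p = 0.937). Tyrp1 and Dct, enzymes of melanin synthesis, had differences of 0.79 and 0.81 (adjusted p = 0.937 for both). The pigment transporters Oca2, with 0.53 and 0.47 against 1.67 and 1.50, and Slc45a2, with 1.10 and 1.04 against 2.24 and 1.91, had more separate days but were not called (adjusted p = 0.253 and 0.594). For Oca2, neither channel was well above background at day 4 nor ethanol at day 7, so that its days rest on signals that were not fully measured. For 9 of the 14 both day 7 ratios lay above both day 4 ratios, against 17.9% of all genes.

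All 30 mitosis genes tested had a difference above 0, against 10586 of the 22038 over all genes. In 17 of the 30 both day 7 ratios lay above both day 4 ratios, against 17.9% of all genes, but 0 were called. Their median ratio was 0.14 at day 2, 0.70 at day 4 and 1.13 at day 7, and the median difference between the last days was 0.44. On the single arrays the median was 0.59 and 0.84 at day 4 and 0.83 and 1.48 at day 7, so that day 4 replicate 2 and day 7 replicate 1 were at the same level. Top2a, which untangles DNA in dividing cells, had 0.55 and 0.47 at day 4 and 0.99 and 1.66 at day 7 (adjusted p = 0.937). A second, dimmer probe of Top2a gave a difference of 0.12, beside 0.82 for this probe. Birc5, of the chromosomal passenger complex, had 1.06 and 1.43 against 1.53 and 2.04 (adjusted p = 0.937). The median difference of the mitosis genes was 0.73 without day 7 replicate 1 and 0.14 without replicate 2. DNA replication genes had a median difference of 0.22 with 0 of 29 called, and it was -0.05 without day 7 replicate 2.

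**Figure D4:**
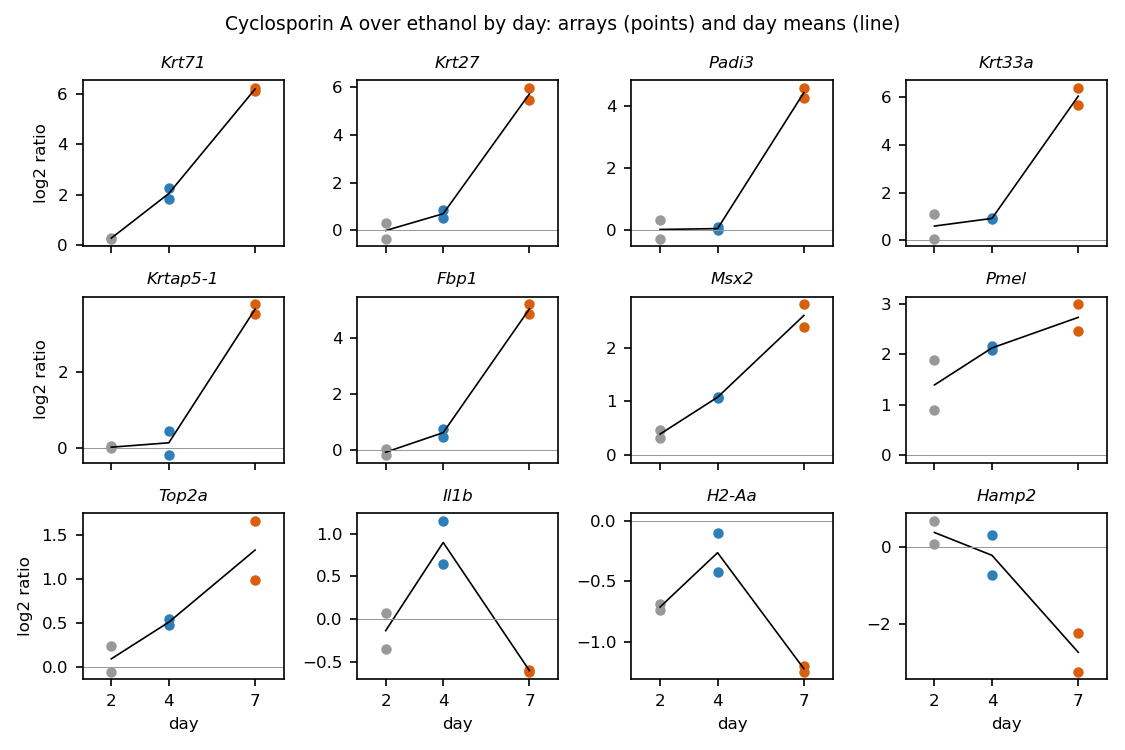
Log2 ratio of cyclosporin A over ethanol by day (x axis, days after treatment) for 12 genes, with points for single arrays and a line through the day means (n = 2), each panel on its own y axis. Padi3, Krt33a, Krtap5-1 and Fbp1 lie below 1 on both day 4 arrays and above 3 on both day 7 arrays. These genes, like Krt71, Krt27, Msx2, Pmel and Top2a, have a higher mean at each later day. Il1b, H2-Aa and Hamp2 are lower at day 7 than at day 4 without passing the test.

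On the lower side no gene was called. Hamp2 had the lowest difference of all genes tested, and the other genes given are examples, not the next in rank. Hamp2, a hepcidin gene, had 0.31 and -0.73 at day 4 and -3.22 and -2.22 at day 7 (difference -2.52, SE 0.45, adjusted p = 0.265). Il1b, the inflammatory cytokine, had 0.08 and -0.34 at day 2, 0.64 and 1.15 at day 4 and -0.59 and -0.61 at day 7 (difference -1.50, adjusted p = 0.152), so that its mean ratio was above 0 at day 4 alone. S100a9, a neutrophil and keratinocyte alarmin, had -0.73 and 0.75 against -1.02 and -2.09 (adjusted p = 0.937). Wnt4 had a difference of -2.05, with 0.21 and 4.54 at day 4 and 0.43 and 0.22 at day 7 (adjusted p = 0.937).

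The genes of MHC class II presentation and Langerhans cells had a lower ratio at day 7 than at day 4 in 14 of 14 members, against 11452 of the 22038 over all genes. In 11 of the 14 both day 7 ratios lay below both day 4 ratios, against 17.9% of all genes, and 0 were called. The median difference of the list was -0.66. Its median ratio was -0.43 at day 2, -0.01 at day 4 and -0.60 at day 7, so that day 2 lay nearer to day 7 than to day 4. H2-Aa, a chain of the class II molecule, had -0.43 and -0.11 at day 4 and -1.20 and -1.25 at day 7 (difference -0.96, adjusted p = 0.271). Its day 2 ratios of -0.69 and -0.74 lay between both days. H2-Eb1 had -0.46 and 0.02 against -1.65 and -1.15 (adjusted p = 0.504), and Cd74, the invariant chain, -0.63 and -0.12 against -1.68 and -1.24 (adjusted p = 0.744). Ciita, the master regulator of the class, had -0.67 and 0.71 against -1.74 and -0.93, with wide spread at day 4. Cd207, the Langerhans cell lectin, had 0.45 and 0.65 against 0.17 and -0.30 (adjusted p = 0.937). The T cell list had a median of -0.26 with 0 of 16 called.

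The genes of epidermal differentiation had a difference below 0 in 31 of 32 members, against 11452 of the 22038 over all genes, with a median of -0.73. In 20 of the 32 both day 7 ratios lay below both day 4 ratios, against 17.9% of all genes, and 0 were called. Sbsn, a secreted protein of the upper epidermis, had 0.02 and -0.08 at day 4 and -1.18 and -1.25 at day 7 (adjusted p = 0.825). A second, dimmer probe of Sbsn gave a difference of 0.21, opposite in sign to the -1.19 of this probe. Lce1i, a late cornified envelope gene, had -0.20 and 0.68 against -1.11 and -0.99 (adjusted p = 0.937). Krt10, the keratin of suprabasal cells, had 0.50 and 0.52 against 0.49 and -0.78, and basal Krt14 0.12 and 0.25 against 0.08 and -0.65. The day 7 arrays disagreed in level: the median ratio of the 32 was 0.02 on replicate 1 and -0.83 on replicate 2, after 0.14 and 0.30 at day 4. Without day 7 replicate 2 the median difference was -0.33, and without replicate 1 it was -1.15. Centred on the spike-in controls, which moved the median of all genes to 0.67, the medians of the epidermal and MHC class II lists were -0.04 and 0.02, both below the median of all genes.

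**Figure D5:**
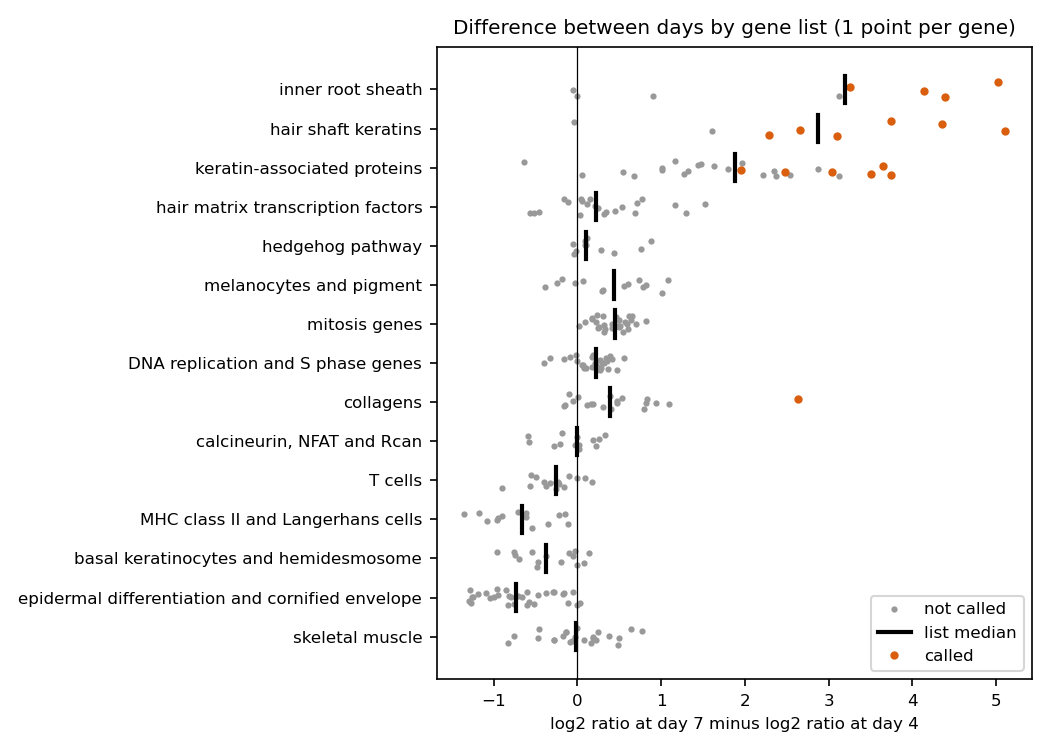
Difference of the log2 ratio between day 7 and day 4 (x axis) for the tested genes of 15 lists (y axis), 1 point per gene, called genes in orange and list medians as bars. Called genes occur in the lists of the inner root sheath, shaft keratins, keratin-associated proteins and collagens, and the lists of MHC class II and epidermal genes lie mostly below 0 with none called.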

How the data were processed

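The deposited scanner files give each spot's median intensity in both channels, and the submitters' processing notes name Agilent Feature Extraction 9.1. The deposited value table holds log10 ratios of Cy5 over Cy3 from the same software; they equal the files' ratio column, and both served as alternatives after turning to log2. With limma 3.58.1 in R 4.3.3, median intensities were corrected by normexp (offset 50) and loess-normalized within arrays (control spots at weight 0). Spots marked as outliers were dropped (15 to 126 on an array); 0 were saturated. Of 41174 probes, 27932 passed the filter (either channel well above background on both arrays of any 1 day). The brightest probe stood for each gene, giving 22039 genes, 13466 with a RefSeq symbol. No build is given for the array, so its probes carry no coordinates. One mean per day was fitted to all 6 arrays, with 3 residual and 3.752 prior degrees of freedom. An exact permutation test of 2 against 2 arrays cannot go below p = 0.333.

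The main members and lists were chosen with earlier results of these data known. The text names up to 12 called genes with the largest difference, up to 4 called and 2 other members with the smallest p per list, genes listed by name, and genes said to be chosen by their values; further list members named were chosen after their values were seen. Replicate numbers did not pair the arrays. The fit was tested on simulated data.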

Additional observations from a re-analysis of the deposited data

Results flagged for a closer look

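The cyclosporin A over ethanol ratio differed between day 4 and day 7 by the test of the difference itself for 41 genes, all higher at day 7. Krt27, Krt33a, Prr9, Fbp1 and Padi3 were among those with the largest differences, and slide and day 7 cannot be told apart for any of them.

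The spike-in controls, which were not among the genes tested and served only to centre the ratios in 1 alternative, had log2 ratios on day 4 replicate 2 that lay a median of 1.41 above the other 5 arrays, whose own median gaps were -0.16 to 0.11.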

How the results depend on the processing

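Against the 41 genes called higher, 25 were called with no background correction, 12 when both channels had to be well above background on each of the 4 arrays (12 of the 41 could be tested there), and 73 with ratios centred on the spike-in controls, an alternative chosen after seeing the data, of which 39 were among the 41. Leaving out 1 array gave 14 to 62 genes called higher and 0 to 7 lower: 14 and 2 without day 4 replicate 1, 16 and 0 without day 4 replicate 2, 38 and 2 without day 7 replicate 1, and 62 and 7 without day 7 replicate 2. A lone array is then assumed to vary like those of the other days. Against 0 called lower, normexp with offset 0, the intensity trend with robust prior and the replicate block each gave 1, the processed signals of the scanner software 2 and the deposited log ratios 4. With the replicate number as a block, 35 were called higher, all among the 41; the numbers do not pair the arrays (correlations of same-numbered deviations -0.02 for days 4 and 7, -0.28 for days 2 and 7, 0.00 for days 2 and 4). The other settings gave 37 to 56 called higher. Each of the 41 kept its sign in every one of the 19 alternatives in which it was tested. Where an alternative only left out arrays, this was fixed in advance, as the ratios of the 2 days did not overlap.

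The differences that turned belonged to genes that were not called. Centred on the spike-in controls, which moved the median of all genes from -0.01 to 0.67, they were 0.68 for Gata3, 0.64 for Tgm3, 0.65 for Krt84, 0.051 for Krtap3-2, 0.52 for Foxn1, 0.071 for Cd207, 0.029 for Krt10, 0.21 for Krt14, 0.091 for Nfatc1 and 0.10 for Nfatc4. Gata3 was 0.032 with offset 0, Krt84 0.014 with no background correction, Tgm3 0.14 with processed signals and 0.14 with deposited log ratios, and Ptch1 -0.052 with processed signals. Over the arrays left out in turn, the range was -0.26 to 0.25 for Gata3, -0.17 to 0.10 for Krt84, -0.74 to 0.42 for Foxn1, -1.21 to 0.022 for Nfatc1 and -0.084 to 0.25 for Ptch1. The cause was not tested. Signals that were not well above background limit the folds, and 2 arrays per day limit the calls.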

Other observations

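The 2 day 7 arrays ranked the gene groups differently, each set against its own ethanol control. The median ratio of keratin-associated proteins was higher on replicate 1 (2.41 against 1.44), and that of the inner root sheath list was as well (4.14 against 3.59). Within the sheath list, Krt27, Krt25 and Tgm3 had the higher ratio on replicate 2 and the other members on replicate 1. Matrix transcription factors (0.30 on replicate 1, 0.75 on replicate 2), mitosis genes (0.83 and 1.48), DNA replication genes (0.66 and 1.21), collagens (0.00 and 0.29) and interferon-responsive genes (-0.21 and 0.38) had the higher median on replicate 2. Adipocyte genes had medians of 0.04 and 0.38. Over all genes the medians were 0.06 and 0.01. With 1 sample of each treatment per array, these are values with no test.

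Lists with little difference between days included the mitochondrial respiratory chain (median -0.07, 0 of 75 called) and the cyclophilins with FK506-binding proteins (0.03, 0 of 13). Others were cholesterol synthesis (-0.01, 0 of 22), the circadian clock (-0.04, 0 of 18) and the unfolded protein response (0.03, 0 of 20). Cytosolic ribosomal protein genes had a median of -0.19, with 66 of 81 below 0 and 0 called. Skeletal muscle genes, of the muscle layer under the skin, had a median difference of -0.02 with ratios of -0.33 and -0.85 at day 4 and -0.24 and -0.78 at day 7, so that the arrays of a day differed more than the days.

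Pf4, the platelet factor gene, had the widest swings and was not called. Its ratios were 4.77 and 0.17 at day 2, -3.55 and -2.85 at day 4 and 1.58 and 0.66 at day 7 (difference 4.32, adjusted p = 0.937). It was chosen after its values were seen.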
